A study of Mus with 6 samples.

Results

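Hey1 and 7 genes of the Notch pathway were followed in CD4+ T cells activated with or without neutralization of VEGF-B. The 8 genes were taken by symbol (Hey1, Hes1, Notch1, Notch2, Rbpj, Maml1, Adam10 and Psen2), and all 8 were found among the 10995 protein-coding genes of the table. Hey1 had been seen among the largest differences between the treatments, so the comparison of anti–VEGF-B with IgG took part in the choice. The 8 genes are therefore described by their values, with no p-value. Tests are given for 46 other genes of the pathway and for lists of target genes. These lists were also chosen with earlier results of these data known.

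Notch receptors are activated by ligands of the Delta and Jagged families on neighboring cells. Binding of a ligand exposes the receptor to the protease ADAM10 and then to γ-secretase, which has a presenilin as its catalytic subunit and frees the intracellular domain of the receptor. In the nucleus this domain joins the DNA-binding protein RBPJ and a coactivator of the Mastermind-like family, and RBPJ without it holds corepressors at the same genes. HES1 and HEY1 are basic helix-loop-helix repressors encoded by the classical targets of this complex. In T cells, Notch signaling is known for its part in lineage commitment in the thymus and in the activation and differentiation of helper cells.

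Naive CD4+ T cells from the spleen of WT mice were stimulated for 3 days with anti-CD3 at 5 μg/mL, anti-CD28 at 2 μg/mL and IL-2 at 100 U/mL. Cells of both groups received these stimuli, and either an antibody against VEGF-B or control goat IgG was added at 1 μg/mL. Each treatment had 3 RNA-Seq libraries. The age and sex of the mice, and whether the libraries came from separate mice or cultures, are not given in the sources used here, so the spread between libraries may be technical.

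The deposited values have no stated unit and were treated as FPKM, that is, fragment counts scaled by transcript length and by library. The read depth behind them is unknown. Fold changes are differences of log2(FPKM + 1), which understate the change of weakly expressed genes, and were tested with limma over the 8816 genes whose mean reached 1 FPKM. The median of these 8816 fold changes was -0.15, and 28.7% of them had an adjusted p under 0.05 (23.8% lower and 4.87% higher with anti–VEGF-B). T cell markers were present in all libraries, with a summed level of 589 to 634 FPKM with anti–VEGF-B and 590 to 686 FPKM with IgG over 9 of 10 markers. The members of this list were not alike. Thy1, Cd3e and Cd5 lay lower with anti–VEGF-B with no overlap (log2 fold changes of -0.75, -0.51 and -0.38, named after their values were seen), and the other 6 overlapped. Of all genes tested, 38.5% lay lower with no overlap. The part of these T cell markers in the results was not tested. The 2 endothelial markers with a value, out of 8, summed to 6.77 to 7.61 FPKM and 6.08 to 7.56 FPKM, nearly all of it from Pecam1, which T cells also express. The 4 myeloid markers with a value, out of 7, summed to 28.8 FPKM in IgG replicate 3 and to 11.4 to 13.1 FPKM in the other libraries. The part of this library's myeloid signal in the results was not tested. The 2 CD8 T cell markers summed to 2.29 to 4.69 FPKM over all libraries, the 1 B cell marker with a value (Cd79b) to 0.665 to 1.34 FPKM, and the 2 of 4 NK cell markers to 0.121 to 0.645 FPKM. The other markers on these lists, and all those on the stromal and erythroid lists, had no value and could not be analysed.

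The values of both classical targets stood apart between the treatments, in opposite directions. Hey1 (chromosome 3 of GRCm38, 8663359 to 8667256, minus strand) was at 28.5, 24.9 and 29.8 FPKM in the anti–VEGF-B libraries and at 12.9, 8.31 and 14.5 FPKM in the IgG libraries. All 3 anti–VEGF-B values lay above all 3 IgG values, and the lowest was IgG replicate 2. The means were 27.7 ± 2.52 and 11.9 ± 3.21 FPKM (SD, n = 3 each), a ratio of 2.33, and the log2 fold change was 1.18 with a standard error of 0.170. By this fold change Hey1 ranked 6 among the 8816 genes tested. Without IgG replicate 2 the log2 fold change was 0.96, the smallest value over the fits that left out 1 library. In bulk RNA, a difference in the number of cells that express a gene and a difference in the RNA per cell cannot be told apart.

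Hes1 (chromosome 16, 30064384 to 30067796, plus strand), whose protein represses transcription in many progenitor cells and in T cell precursors, had the opposite pattern. It was at 2.36, 2.43 and 2.31 FPKM with anti–VEGF-B and at 6.42, 3.87 and 3.63 FPKM with IgG. The anti–VEGF-B values were close to each other and all lay under the IgG values, among which replicate 1 was the highest. The mean with IgG was 1.96 times that with anti–VEGF-B (4.64 ± 1.55 against 2.37 ± 0.0586 FPKM), and the log2 fold change was -0.71 (standard error 0.168). Without IgG replicate 1 it was -0.50.

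**Figure D1:**
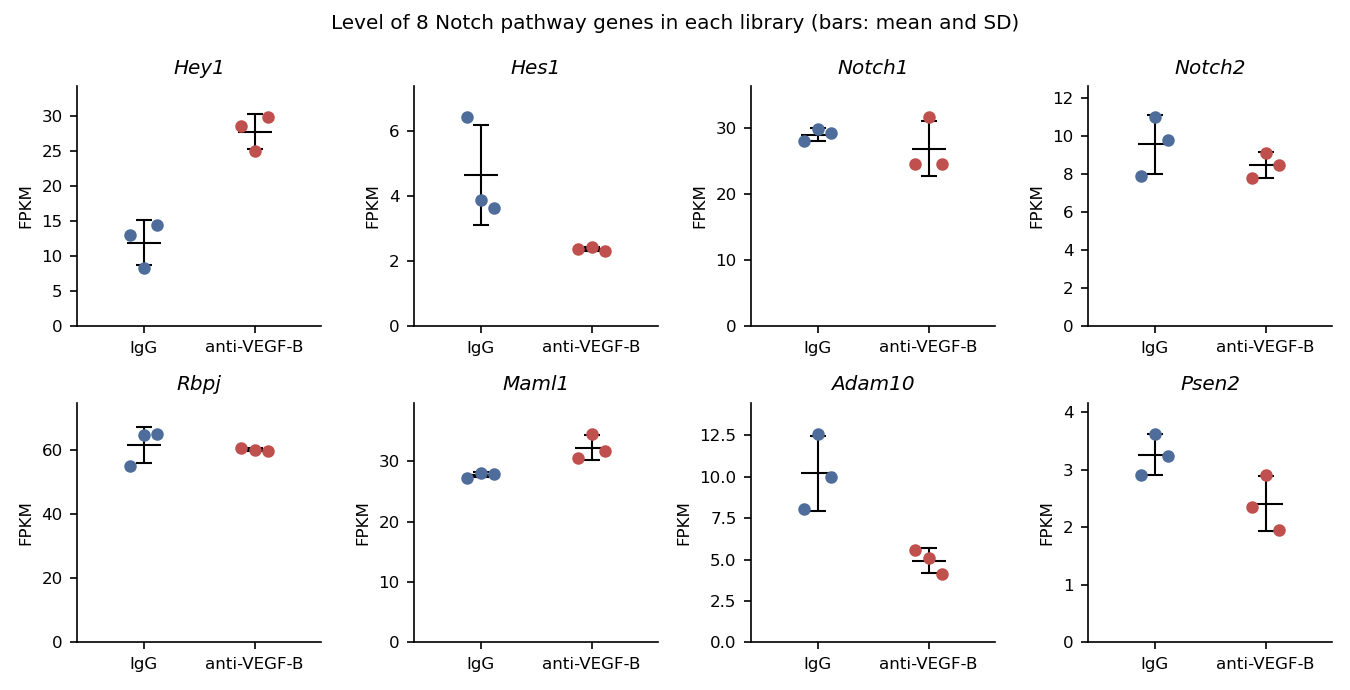
FPKM of the 8 genes in each library, 1 panel a gene, with IgG in blue and anti–VEGF-B in red; horizontal marks are means and bars are SDs (n = 3). The groups lay apart for Hey1 and Maml1 (higher with anti–VEGF-B) and for Hes1, Adam10 and Psen2 (lower), and overlapped for Notch1, Notch2 and Rbpj.

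Of the other HES and HEY genes on the list, 3 had a value and only Hes6 passed the filter. Hes6, which encodes a family member known to counteract HES1, had 23.7 ± 2.68 FPKM with anti–VEGF-B and 23.2 ± 0.508 FPKM with IgG. Its log2 fold change was 0.022 (95% interval -0.18 to 0.23, limma, adjusted p = 0.869). Hey2 had 0.644 ± 0.118 and 0.616 ± 0.122 FPKM, and Hes7 had 0.506 ± 0.155 and 0.480 ± 0.0385 FPKM, with overlapping groups for both. With IgG, Hey1 was at 11.9 FPKM and Hey2 at 0.616 FPKM. Hes2, Hes3, Hes5 and Heyl had no value and could not be analysed.

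The receptors overlapped between treatments. Notch1 (chromosome 2, 26457903 to 26516663, minus strand), the main receptor of T cell precursors, was at 24.5, 31.6 and 24.5 FPKM with anti–VEGF-B and at 28.0, 29.9 and 29.2 FPKM with IgG. The value of anti–VEGF-B replicate 2 lay above all IgG values and the other two lay under them. The log2 fold change was -0.12 (standard error 0.104), close to the median of all genes. Notch2 (chromosome 3, 98013527 to 98150361, plus strand), a second receptor of peripheral lymphocytes, was at 7.79, 9.13 and 8.50 FPKM with anti–VEGF-B and 7.93, 11.0 and 9.80 FPKM with IgG. These ranges overlapped, and the log2 fold change was -0.15 (standard error 0.121). Notch3 was low, at 0.404 ± 0.0783 and 0.501 ± 0.0524 FPKM, again with overlapping groups, and under the filter.

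The only ligand with a value, Jag2 (Jagged 2), was higher with anti–VEGF-B. It was at 13.2, 15.1 and 13.5 FPKM with anti–VEGF-B and at 9.63, 9.98 and 10.8 FPKM with IgG. The groups did not overlap, and the log2 fold change was 0.43 (standard error 0.0887, limma, adjusted p = 0.0118). Without each library in turn it ran from 0.37 to 0.47 and kept an adjusted p of 0.0212 to 0.0404. Dll1, Dll3, Dll4 and Jag1 had no value and could not be analysed.

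Among the proteases that cut the receptor, Adam10 differed most. Adam10 (chromosome 9, 70678997 to 70780229, plus strand), whose product makes the cut that depends on the ligand, was at 5.59, 5.11 and 4.13 FPKM with anti–VEGF-B. With IgG it was at 8.03, 12.6 and 9.97 FPKM, so that each IgG value lay above each anti–VEGF-B value. The mean with IgG was 2.06 times that with anti–VEGF-B (10.2 ± 2.29 against 4.94 ± 0.742 FPKM), and the log2 fold change was -0.90 (standard error 0.156). Over the fits that left out 1 library it ran from -1.05 to -0.75. By fold change Adam10 ranked 109 from the lowest among the genes tested and Hes1 ranked 312.

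Adam17, which encodes a related sheddase that can also cut Notch, fell from 7.22 ± 0.802 FPKM with IgG to 5.05 ± 0.246 FPKM with anti–VEGF-B. The log2 fold change was -0.44 (standard error 0.102, limma, adjusted p = 0.0162). Rescaling the libraries took this call away, with an adjusted p of 0.0700 after quantile normalization and 0.0648 after median centring.

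Psen2 (chromosome 1, 180227004 to 180263438, minus strand), which encodes a presenilin of γ-secretase, was at 2.36, 2.91 and 1.96 FPKM with anti–VEGF-B and at 2.91, 3.63 and 3.25 FPKM with IgG. The groups were apart by a narrow margin, with anti–VEGF-B replicate 2 next to IgG replicate 1, and the log2 fold change was -0.33 (standard error 0.128). After quantile normalization it was -0.09. Of the other γ-secretase subunit genes described here, none passed the test with the deposited values. Ncstn, the gene of nicastrin, had a log2 fold change of -0.11 (95% interval -0.32 to 0.09, adjusted p = 0.355), and Aph1a had 0.063 (adjusted p = 0.568, chosen after its value was seen). Psenen, which encodes the small subunit PEN-2, was at 25.3 ± 4.31 and 19.8 ± 1.08 FPKM with groups apart. Its log2 fold change of 0.33 missed the threshold (limma, adjusted p = 0.0585), and passed after quantile normalization (adjusted p = 0.0324) and median centring (adjusted p = 0.0101). Aph1b, whose reads could be shared with the closely similar Aph1c, was under the filter.

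Of the 8 genes, Rbpj had the highest level, and its values overlapped between the treatments. Rbpj (chromosome 5, 53466152 to 53657362, plus strand), the DNA-binding partner of all Notch receptors, was at 60.8, 60.2 and 59.7 FPKM with anti–VEGF-B and at 55.1, 64.7 and 65.2 FPKM with IgG. The anti–VEGF-B values lay inside the range of the IgG values, with a log2 fold change of -0.029 (standard error 0.0817, 95% interval -0.21 to 0.15). Maml1 (chromosome 11, 50255634 to 50292311, minus strand), a Mastermind-like coactivator, was at 30.5, 34.5 and 31.7 FPKM with anti–VEGF-B and at 27.2, 28.0 and 27.9 FPKM with IgG. All anti–VEGF-B values lay above all IgG values, by a small step, with a log2 fold change of 0.21 (standard error 0.0752). Maml2 had 14.2 ± 1.68 and 14.0 ± 1.23 FPKM with overlapping groups (limma, adjusted p = 0.900, chosen after its value was seen), and Maml3 was under the filter.

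Of 6 other genes of the nuclear complex tested, 3 were called, all lower with anti–VEGF-B (50%, against 23.8% of all genes tested), and these 3 encode histone acetyltransferases. Kat2b (PCAF) had a log2 fold change of -0.39 (limma, adjusted p = 0.0177), Kat2a (GCN5) -0.35 (adjusted p = 0.0309) and Ep300 (p300) -0.30 (adjusted p = 0.0475). Crebbp, which encodes the close relative of p300, had 0.11 (95% interval -0.11 to 0.32, adjusted p = 0.416, and 0.0426 after median centring). None of the 3 calls was kept after quantile normalization (adjusted p = 0.0903, 0.344 and 0.0958) or median centring. The call of Kat2a was lost without any 1 of the 6 libraries (adjusted p from 0.0521 to 0.119), that of Ep300 without anti–VEGF-B replicate 1 or 3 or IgG replicate 2 or 3 (from 0.115 to 0.162), and that of Kat2b without anti–VEGF-B replicate 3 (0.0695).

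Over the 8 genes, 2 had all anti–VEGF-B values above the IgG values (10.5% of all genes tested did), 3 had them all under (38.5% of all genes), and 3 overlapped. In either direction the groups lay apart for 5 of the 8 genes and for 49% of all genes tested. Because most genes were lower with anti–VEGF-B, small differences depended on the scaling between libraries. Hey1 had a log2 fold change of 1.299 after quantile normalization and 1.40 after median centring, Adam10 -0.72 and -0.70, and Hes1 -0.47 and -0.54. These 3 genes and Maml1 (0.27 and 0.43) kept their sign, as did Psen2 (-0.09 and -0.16). Notch1 went from -0.12 to 0.11 after median centring, Notch2 from -0.15 to 0.011 and 0.061, and Rbpj from -0.029 to 0.20 after median centring, so that no direction can be given for these 3.

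**Figure D2:**
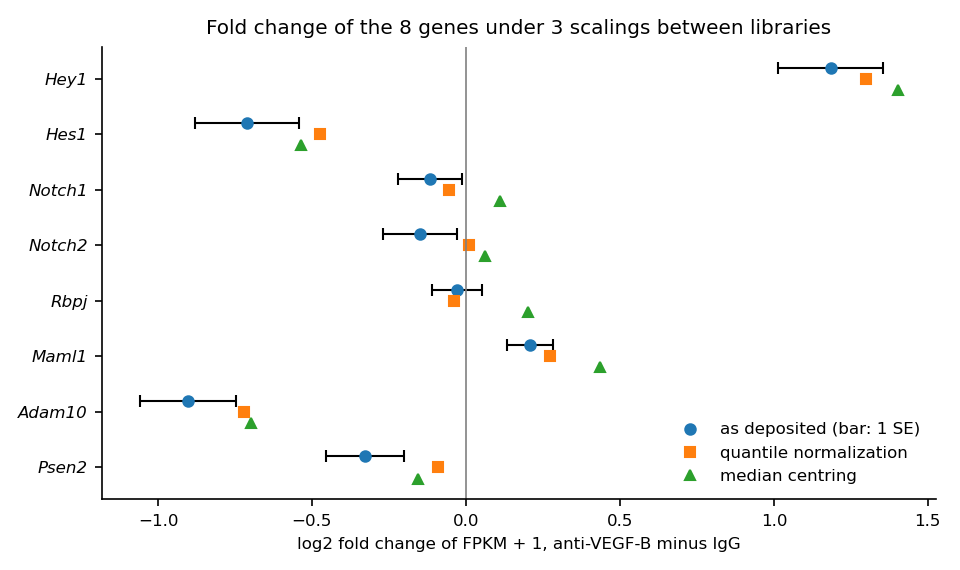
Difference of log2(FPKM + 1) between anti–VEGF-B and IgG (x axis) for the 8 genes (rows) with the deposited values (circles, bars are 1 standard error), after quantile normalization (squares) and after median centring (triangles). Hey1 stayed above 1 and Adam10 and Hes1 stayed under -0.4, while Notch1, Notch2 and Rbpj crossed 0.

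If the values are FPKM, as they were treated here, they are per length, and levels can be set side by side. With IgG, Rbpj was highest at 61.7 ± 5.68 FPKM at percentile 94.7 of all listed genes. Notch1 (29.0 ± 0.960 FPKM) and Maml1 (27.7 ± 0.433 FPKM) came next and overlapped each other. Hey1 (11.9 FPKM), Adam10 (10.2 FPKM) and Notch2 (9.58 ± 1.55 FPKM) came after them and could not be ordered within the spread of their libraries. Hes1 (4.64 FPKM) and Psen2 (3.26 ± 0.359 FPKM) were lowest, and the lowest value of Hes1 (3.634 FPKM) lay just above the highest of Psen2 (3.628 FPKM). With anti–VEGF-B, Hey1 stood beside Notch1 (27.7 and 26.9 ± 4.11 FPKM, overlapping), Adam10 (4.94 FPKM) lay under Notch2 (8.47 ± 0.672 FPKM) with no overlap, and Hes1 (2.37 FPKM) lay within the range of Psen2 (2.41 ± 0.478 FPKM).

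**Figure D3:**
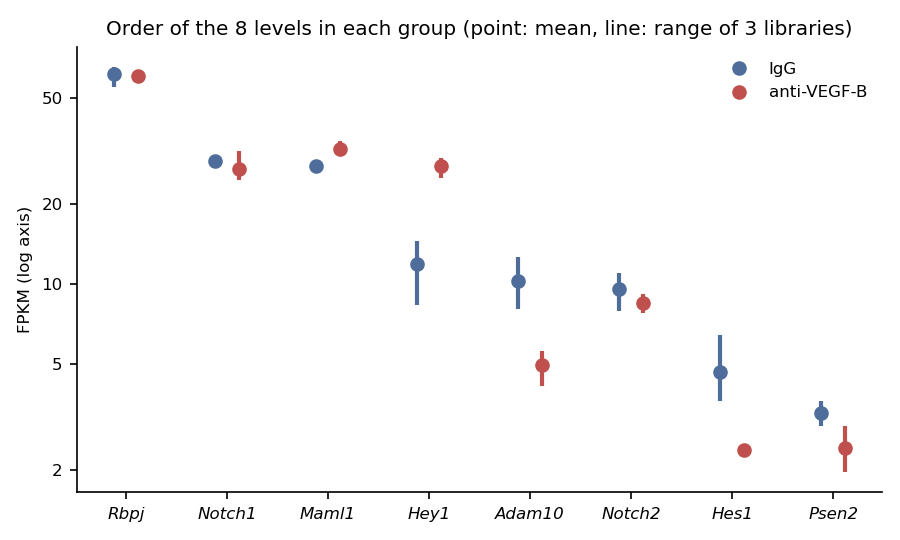
Mean FPKM (points, log axis) and range over 3 libraries (lines) of the 8 genes with IgG (blue) and anti–VEGF-B (red), ordered by their mean with IgG. Hey1 lay at the level of Adam10 and Notch2 with IgG and at that of Notch1 with anti–VEGF-B.

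A ratio of a pair of genes within a library does not change with 1 scaling factor per library, as in median centring. Quantile normalization, which depends on the level of each gene, can change it. From the deposited values 7 such ratios, chosen after the values were seen, were formed. The ratio of Hey1 to Hes1 was 12.1, 10.3 and 12.9 with anti–VEGF-B and 2.02, 2.15 and 3.98 with IgG, with means of 11.7 ± 1.34 and 2.71 ± 1.10. Adam10 and Adam17 were unequal in their difference as well, with a ratio of 1.09, 1.07 and 0.786 against 1.23, 1.56 and 1.42. The ratio of the ligand gene Jag2 to its possible receptor Notch1 was 0.523 ± 0.0392 against 0.349 ± 0.0185, with no overlap. That of Maml1 to Rbpj was 0.535 ± 0.0358 against 0.452 ± 0.0366, with IgG replicate 1 (0.494) next to anti–VEGF-B replicate 1 (0.502). Psenen to Ncstn was 2.03 ± 0.361 against 1.46 ± 0.0879, also apart. The ratios of Notch1 to Notch2 (3.16 ± 0.290 and 3.08 ± 0.416) and of Maml1 to Maml2 (2.28 ± 0.160 and 1.99 ± 0.150) overlapped.

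**Figure D4:**
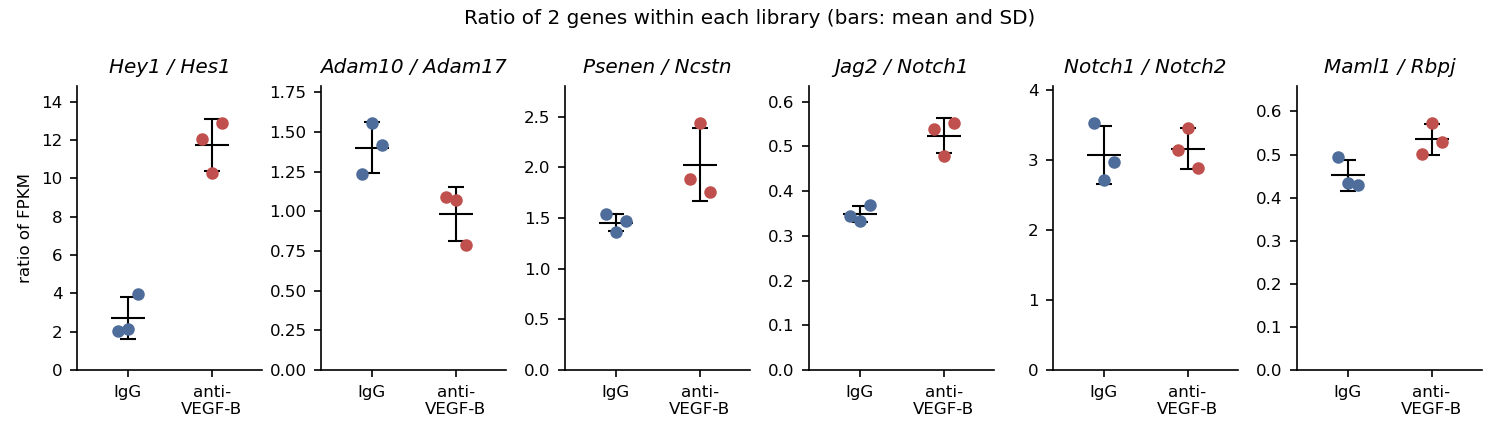
Ratio of the FPKM of 2 genes within each library (y axis) for 6 pairs, with IgG in blue and anti–VEGF-B in red; marks are means and bars are SDs (n = 3). The ratio of Hey1 to Hes1 ran from 10.3 to 12.9 with anti–VEGF-B and from 2.02 to 3.98 with IgG, while those of Notch1 to Notch2 overlapped.

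Beyond the 8 genes, a list of 69 Notch pathway genes held 57 with a value and 46 that were tested. Of these 46, 16 had an adjusted p under 0.05 in limma, 13 lower and 3 higher with anti–VEGF-B. This is 34.8% of the list against 28.7% of all genes tested, and the median log2 fold change was -0.12 against -0.15 for all genes. The split depended on the scaling, with 4 higher and 3 lower after quantile normalization and 8 higher and 3 lower after median centring. All genes tested shifted alike, with 869 higher and 917 lower after quantile normalization and 1421 higher and 918 lower after median centring. Without anti–VEGF-B replicate 3, only 6 of the 16 were called, namely Jag2, Neurl1a, Furin, Lfng, Adam17 and Hdac1, and these 6 were called in every fit that left out 1 library. Leaving out anti–VEGF-B replicate 1 gave 10 calls on the list, and leaving out IgG replicate 2 gave 9. Calls fell over all genes tested too, from 28.7% to 9.74% without anti–VEGF-B replicate 3. They were 19.0% without anti–VEGF-B replicate 1 and 15.4% without IgG replicate 2.

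**Figure D5:**
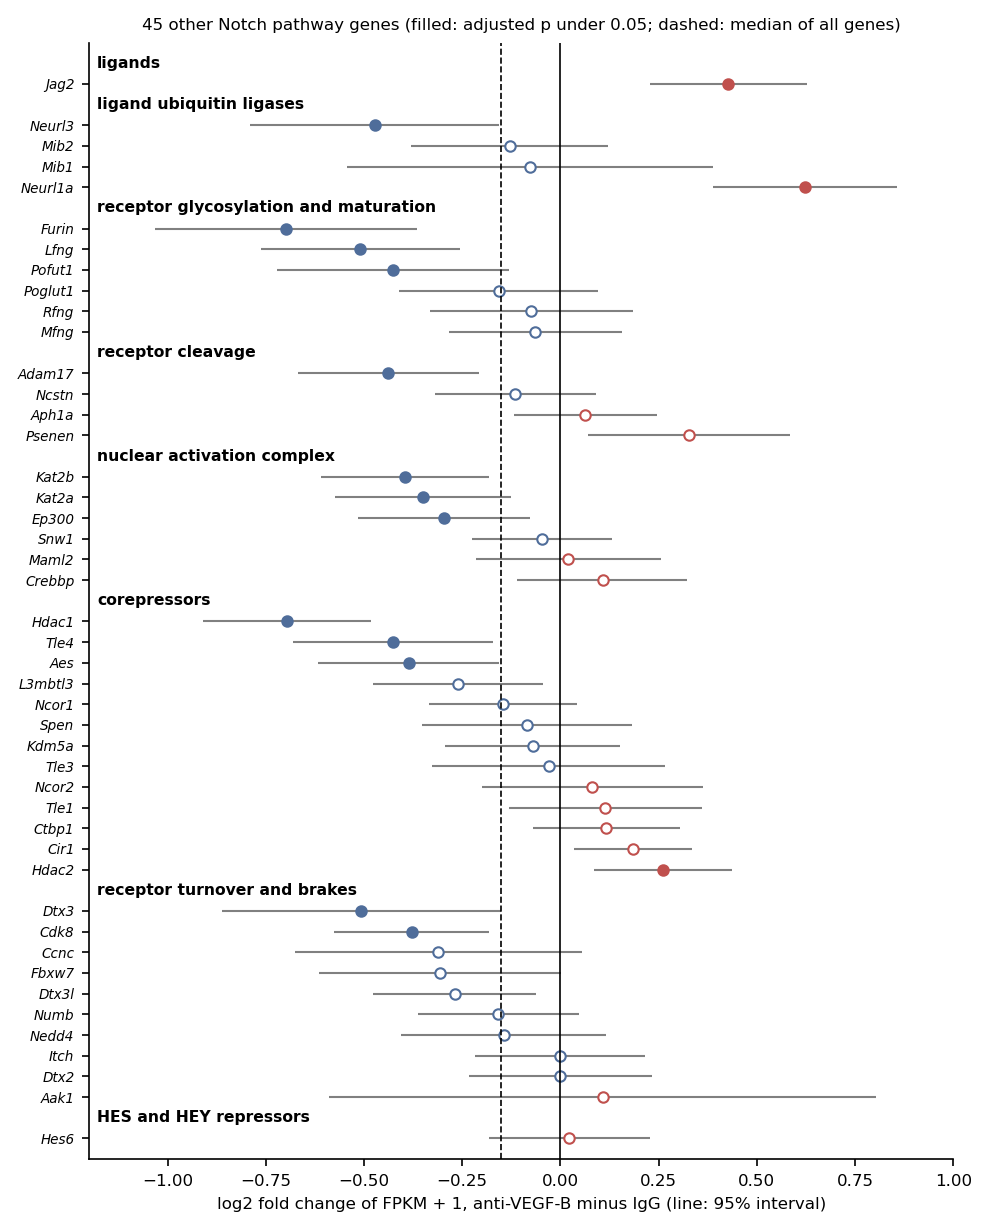
Difference of log2(FPKM + 1) between anti–VEGF-B and IgG (x axis, lines are 95% intervals) for 45 of the 46 other genes of the pathway, grouped by role; filled points had an adjusted p under 0.05 in limma, red is above 0 and blue is under 0. The dashed line marks the median of all genes at -0.15, and Furin and Hdac1 lay farthest below it and Jag2 and Neurl1a farthest above.

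Of 6 genes whose products modify the receptor on its way to the membrane, 3 were called, all lower (50%, against 23.8% of all genes tested), a direction that most genes of the table shared. Furin, the convertase gene that processes the Notch precursor, fell from 22.6 ± 4.01 to 13.5 ± 2.47 FPKM (log2 fold change -0.70, limma, adjusted p = 0.0126). Lfng (lunatic fringe), which encodes a glycosyltransferase that tunes the response to Delta and Jagged ligands, fell from 20.8 ± 3.50 to 14.2 ± 0.402 FPKM (-0.51, adjusted p = 0.0136). Both were also called after quantile normalization (adjusted p = 0.0204 and 0.0287) and median centring (0.0229 and 0.0418). Pofut1, the O-fucosyltransferase gene needed for Notch activity, had -0.43 (limma, adjusted p = 0.0386). It was not called after either scaling, nor without any 1 of the anti–VEGF-B libraries or IgG replicate 2 (adjusted p from 0.0749 to 0.111). Poglut1 had -0.16 (limma, adjusted p = 0.306), and was above 0 after both scalings.

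Of 4 tested genes listed as ubiquitin ligases for ligands, 1 was called higher and 1 lower. Each is 25%, against 4.87% higher and 23.8% lower of all genes tested. Neurl1a, a Neuralized gene, rose from 2.14 ± 0.264 to 3.82 ± 0.170 FPKM (log2 fold change 0.62, limma, adjusted p = 0.00713), the largest rise on the list. Neurl3, of the same family, fell from 6.71 ± 1.52 to 4.50 ± 0.394 FPKM (-0.47, adjusted p = 0.0351), but was not called after quantile normalization (0.104) or median centring (0.0910), nor without any 1 of the anti–VEGF-B libraries or IgG replicate 2 (0.0646 to 0.116). Mib1 and Mib2, the Mind bomb genes, had -0.078 and -0.13 (limma, adjusted p = 0.792 and 0.397), and both were above 0 after both scalings.

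Among 13 corepressor genes tested, 4 were called, a share of 30.8% that is near the 28.7% of all genes. Hdac1 fell from 39.7 ± 4.65 to 24.0 ± 1.35 FPKM (log2 fold change -0.70, limma, adjusted p = 0.00491), whereas Hdac2, the gene of its close relative, rose from 21.5 ± 0.481 to 25.9 ± 1.72 FPKM (0.26, adjusted p = 0.0356). Both calls were kept after either scaling, but that of Hdac2 was lost without anti–VEGF-B replicate 2 or 3 or any 1 of the IgG libraries (0.0588 to 0.118). The Groucho-related genes Tle4 (-0.43, limma, adjusted p = 0.0244) and Aes (-0.39, adjusted p = 0.0241) were lower and were not called after either scaling. That of Tle4 was also lost without anti–VEGF-B replicate 1 or 3 or IgG replicate 1 (0.0546 to 0.0860), and that of Aes without anti–VEGF-B replicate 3 or IgG replicate 2 or 3 (0.0596 to 0.0796).

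Of 10 tested genes for turnover of the receptor and other brakes, 2 were called, a share of 20% against 28.7% of all genes. Cdk8, a kinase gene of the Mediator complex that marks the intracellular domain for decay, had a log2 fold change of -0.38 (limma, adjusted p = 0.0159, 0.0640 without anti–VEGF-B replicate 3). Dtx3, a Deltex gene, had -0.51 (adjusted p = 0.0405), but was called in only 1 of the 6 fits that left out a library, that without anti–VEGF-B replicate 2 (0.0175, against 0.0691 to 0.112 in the others). Neither was called after quantile normalization (0.131 and 0.0994) or median centring (0.112 and 0.183). Dtx3l had -0.27 (adjusted p = 0.0548, and 0.0324 without IgG replicate 1), and Fbxw7, whose ubiquitin ligase ends the life of the intracellular domain, had -0.31 (adjusted p = 0.118, and 0.0352 without anti–VEGF-B replicate 2). Nrarp and Dtx1, feedback inhibitors and Notch targets (chosen after their values were seen), were both under 1.1 FPKM on average in either group, with groups that overlapped.

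A list of 24 other genes described as Notch targets in T cells shared Notch3, Hey2, Dtx1 and Nrarp with the pathway list. Of the 24, 14 were tested and 9 called, 8 of them lower, which is 57.1% lower against 23.8% of all genes tested. The list was chosen with earlier results of these data known, so this difference from all genes is only described. The median log2 fold change of the 14 was -0.44, and -0.37 after quantile normalization, where 8 were lower (with Cdkn1a in place of Il7r) and 1 higher. After median centring the median was -0.22, with 4 lower and 1 higher. Il2ra, the high-affinity IL-2 receptor subunit gene, fell from 117 ± 28.9 to 58.3 ± 7.01 FPKM (-0.97, limma, adjusted p = 0.00664). Bcl2, a survival gene, had -0.97 (adjusted p = 0.00731), Gzmb, the gene of granzyme B, -0.79 (0.0127), Bcl11b -0.50 (0.0136) and Tcf7 -0.44 (0.0106), the last 2 encoding transcription factors of the T lineage. Bcl11b and Tcf7 were not called after median centring (0.0554 and 0.150), and Bcl11b not without anti–VEGF-B replicate 3 (0.0518). The others were Il4 (-0.73), Gata3 (-0.44) and Il7r (-0.32), and Igf1r (0.38) was the 1 higher gene (limma, adjusted p = 0.0138, 0.0256, 0.0460 and 0.0257; named after their values were seen). Gata3 and Il7r were not called after median centring (0.120 and 0.411). Gata3 was not called without anti–VEGF-B replicate 3 or IgG replicate 2 (0.0761 to 0.0867), Il7r in 5 of the 6 fits that left out a library (0.0695 to 0.121, all but that without IgG replicate 1) and Igf1r in 4 (0.0629 to 0.0876, those without anti–VEGF-B replicate 2 or 3 or IgG replicate 1 or 2). Each of these genes has other inputs in activated T cells, and the part of Notch in them was not tested.

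HEY1 can also be induced by BMP and TGF-β signals, and 8 genes known to respond to these were tested. Of these, 1 was called in limma, lower with anti–VEGF-B (12.5%, against 23.8% of all genes tested). That gene is not reported here, and the call was kept after quantile normalization and lost after median centring. The 5 genes described here were not called. The inhibitor of differentiation genes Id1 and Id3 had -0.25 (adjusted p = 0.0718) and 0.063 (0.687). Id2 had -0.50 with 102, 95.5 and 208 FPKM with anti–VEGF-B against 181, 177 and 183 FPKM with IgG. Its value in anti–VEGF-B replicate 3 lay above the IgG values and the other two far under them, and the adjusted p was 0.142 with all libraries and 0.0102 without that replicate (log2 fold change -0.86). Ski and Bambi had -0.15 (adjusted p = 0.277) and 0.15 (0.421).

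Among 5 tested helix-loop-helix repressor and ID genes outside the HES and HEY family, 2 were called, both higher (40%, against 4.87% of all genes tested). These were the Bhlhe genes, while Id1, Id2 and Id3, whose values are given above, were not called. Bhlhe40, the gene of a repressor induced by T cell activation, rose from 390 ± 37.9 to 568 ± 8.95 FPKM (log2 fold change 0.55, limma, adjusted p = 0.00634). Its paralog Bhlhe41 rose from 1.65 ± 0.157 to 2.54 ± 0.345 FPKM (0.42, adjusted p = 0.0245). Both calls were kept after quantile normalization (adjusted p = 0.00676 and 0.0113) and median centring (0.00763 and 0.0101), but Bhlhe41 was not called without anti–VEGF-B replicate 2 or 3 or IgG replicate 2 (0.0576 to 0.0962).

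The genes whose log2(FPKM + 1) over the 6 libraries was most like that of Hey1 were Eif5 (Pearson r = 0.998 across libraries), Slc25a38 (0.996), Tiparp (0.995), Lrig1 (0.995) and Hilpda (0.995). The 5 encode a translation initiation factor, a mitochondrial carrier, an ADP-ribosyltransferase, a membrane protein that restrains growth factor receptors and a lipid droplet protein. All 5 lay apart between the treatments, as did 49% of all genes tested. This came with their choice by likeness to Hey1, whose groups lay apart, and is not a separate result. Their log2 fold changes ran from 0.15 for Hilpda to 0.67 for Slc25a38, all smaller than that of Hey1. The most opposite patterns included those of 1110038F14Rik (r = -0.999) and Trap1 (-0.998). Of the 8 genes, Adam10 was the most opposite to Hey1 (r = -0.95), and Maml1 the most similar (0.77). The libraries form 2 groups and share their scaling, so these are descriptions of 6 points.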

How the data were processed

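RNA was measured in 6 libraries of activated CD4+ T cells, 3 per treatment, grouped by their labels. The authors deposited 1 table of values for protein-coding genes, for which reads were aligned to GRCm38 by hisat2 and quantified by StringTie and Ballgown. Its header names no unit, and the values, which are not whole numbers, were treated as FPKM as deposited. Whole reads could not be recovered (at most 2.62% of low genes in any pair of libraries shared a ratio), so no count model was run. Genes whose mean reached 1 FPKM were kept, and their log2(FPKM + 1) was fitted in R 4.3.3 with limma 3.58.1 (empirical Bayes with trend), with no covariate and with Benjamini-Hochberg adjustment over all 8816 genes. The fit was also run on simulated independent genes, few of them changed and in either direction. That setting lacks the shift of most genes seen here, and no result rests on it. Calls were made at adjusted p values under 0.05. Members and lists were chosen with earlier results of these data known. Named genes were the 8, up to 4 per pathway role and 5 per target list with the lowest p, all ligands, receptors and HES and HEY genes with a value, and the 5 highest and 3 lowest correlations with Hey1, and some genes under this rule are not reported here. Alternatives changed the scaling, filter, pseudocount, moderation, thresholds, replicate block and libraries included.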

Additional observations from a re-analysis of the deposited data

How the results depend on the processing

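Hey1, Hes1 and Adam10 kept their direction under every alternative they entered. The log2 fold change of Notch1 was 0.11, of Notch2 0.061, of Rbpj 0.20 and of Maml1 0.43 after median centring, and that of Psen2 was -0.16 after median centring and -0.09 after quantile normalization. Of the 46 other pathway genes, 16 were called, against 7 after quantile normalization (6 of them among the 16), 5 under a rule of unadjusted p below 0.05 and a log2 fold change beyond 0.5 either way, and 6 to 13 without each library in turn. Over all 8816 genes the calls fell as well. They numbered 2528 in the main fit, 1786 after quantile normalization, 1121 under that rule, and 859 to 2467 without each library in turn. limma's fit with no moderation of the variance called 0 (17 at an unadjusted p under 0.05, and 12 genes in the whole table). With the replicate number as a block 17 were called (4 higher and 13 lower). Same-numbered libraries deviated together only weakly (r = -0.03, 0.11 and 0.089), and not every library correlated best with its own number, so the numbers were not taken to pair them.

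Among genes that did not pass the test, directions turned after quantile normalization and median centring for Poglut1 (0.082 and 0.017), Mib2 (0.099 and 0.059), Mib1 (0.141 and 0.108) and Ncstn (0.016 and 0.103), and after median centring for Ski (0.065). Without each library in turn Mib1 ran from -0.262 to 0.146 and Hes6 from -0.063 to 0.088. The cause was not tested. Over 37 named genes, 366 of 472 values under alternatives kept both direction and call. Tests made for counts were not run, since the table holds none, and with no depth known the precision of low values is unknown.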
